A study of Mus musculus with 6 samples.

Results

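The 9 genes described here move monocytes: 7 CC chemokines and 2 of their receptors, followed across the cells of the injured tendon-to-bone insertion. They were Ccl2, Ccl3, Ccl4, Ccl6, Ccl7, Ccl8, Ccl12, Ccr1 and Ccr2, picked by symbol from the 32285 genes of each count matrix, so the members were 9 of 32285 genes. CC chemokines are small secreted proteins that bind G protein-coupled receptors on leukocytes and draw the cells up a gradient into inflamed tissue. Ccr2, the receptor of Ccl2, Ccl7 and Ccl12, is needed for inflammatory monocytes to leave the bone marrow, and Ccr1 is bound by Ccl3 and Ccl6 and is carried by neutrophils, monocytes and osteoclast-lineage cells. In wounds these ligands come both from resident stromal cells and from the arriving monocytes and macrophages.

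Single-cell RNA was measured by droplet 3′ sequencing in 6 libraries of the rotator cuff enthesis, 3 from wild-type C57BL/6 mice and 3 from Nlrp3-/- mice, a whole-body knockout of the inflammasome sensor Nlrp3. In all animals the supraspinatus tendon had been cut and sutured back to bone, and tissue was taken 7 days post injury (dpi), so an uninjured enthesis was not analysed here. Entheses were pooled before cells were isolated, the number of animals per library is not given in the sources used here, and p-values therefore measure the spread between these libraries, which may be technical. Group and replicate came from the library titles, while another label of Nlrp3-/- libraries 2 and 3 names Nlrp4 and Nlrp5 in place of Nlrp3. Nlrp3 itself was read at 94.0, 165 and 135 counts per 1000000 UMIs (CPM) in the wild-type libraries and at 0 UMIs in each Nlrp3-/- library, where a count of 0 allows at most 0.0548 CPM. Xist was read at 784 to 934 CPM in the Nlrp3-/- libraries and at 0.102 CPM or less in the wild-type ones, and the Y-linked Ddx3y was at 0 in the former and at 40.0 to 57.7 CPM in the latter. Genotype and sex therefore cannot be told apart in any comparison of the 2 groups.

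The libraries held 97042713 to 134901999 UMIs (unique molecular identifiers, each standing for 1 captured RNA molecule). After cell calling and doublet removal 80422 cells remained, of which 70401 entered the comparisons. The library Nlrp3-/- 1 stood apart: its 20578 cells had a median of 1807.5 UMIs against 3834.5 to 6701 in the others, and 9814 of its cells lay in clusters made mostly of that library and were set aside. Of 79740 distinct cell barcodes, 680 occurred in more than 1 library. Cells were clustered without the 9 members, Nlrp3, Xist, Tsix and the genes of the Y chromosome, while other X-linked genes were not left out. No member was among the marker genes used to name a cluster. Of 10 markers each, 8 were highest in the cells named macrophages, 7 in neutrophils and 9 in mesenchymal cells, 6 in conventional dendritic cells and 4 in hematopoietic progenitors, and 10 in B cells, T and NK cells and endothelial cells. The tendon genes Tnmd (700 to 1552 CPM) and Scx (350.1 to 828 CPM) were read in the tenocyte-like cells of all 6 libraries, but these cells were named with both genes as markers. A cluster of 6497 shallow cells led by Acod1 and Cxcl2 (median 1116 UMIs) had neutrophil genes as its closest list but was too shallow to be named, and clusters led by Mcpt8 and Car1 and by Rgs5 and Notch3 also kept their leading genes as names.

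The level of a gene in a cell type is given below as CPM, its UMIs divided by all UMIs of that library and type. Wild-type libraries and Nlrp3-/- libraries are always listed in the order 1, 2, 3, and ± is the SD over the 6 libraries unless a genotype is named. Such sums cannot tell fewer expressing cells from less RNA per cell. The order of types below covers the 11 types with at least 20 cells in every library, and leaves out muscle cells and erythrocytes. The plot of levels by cell type gives all 9 genes.

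**Figure D1:**
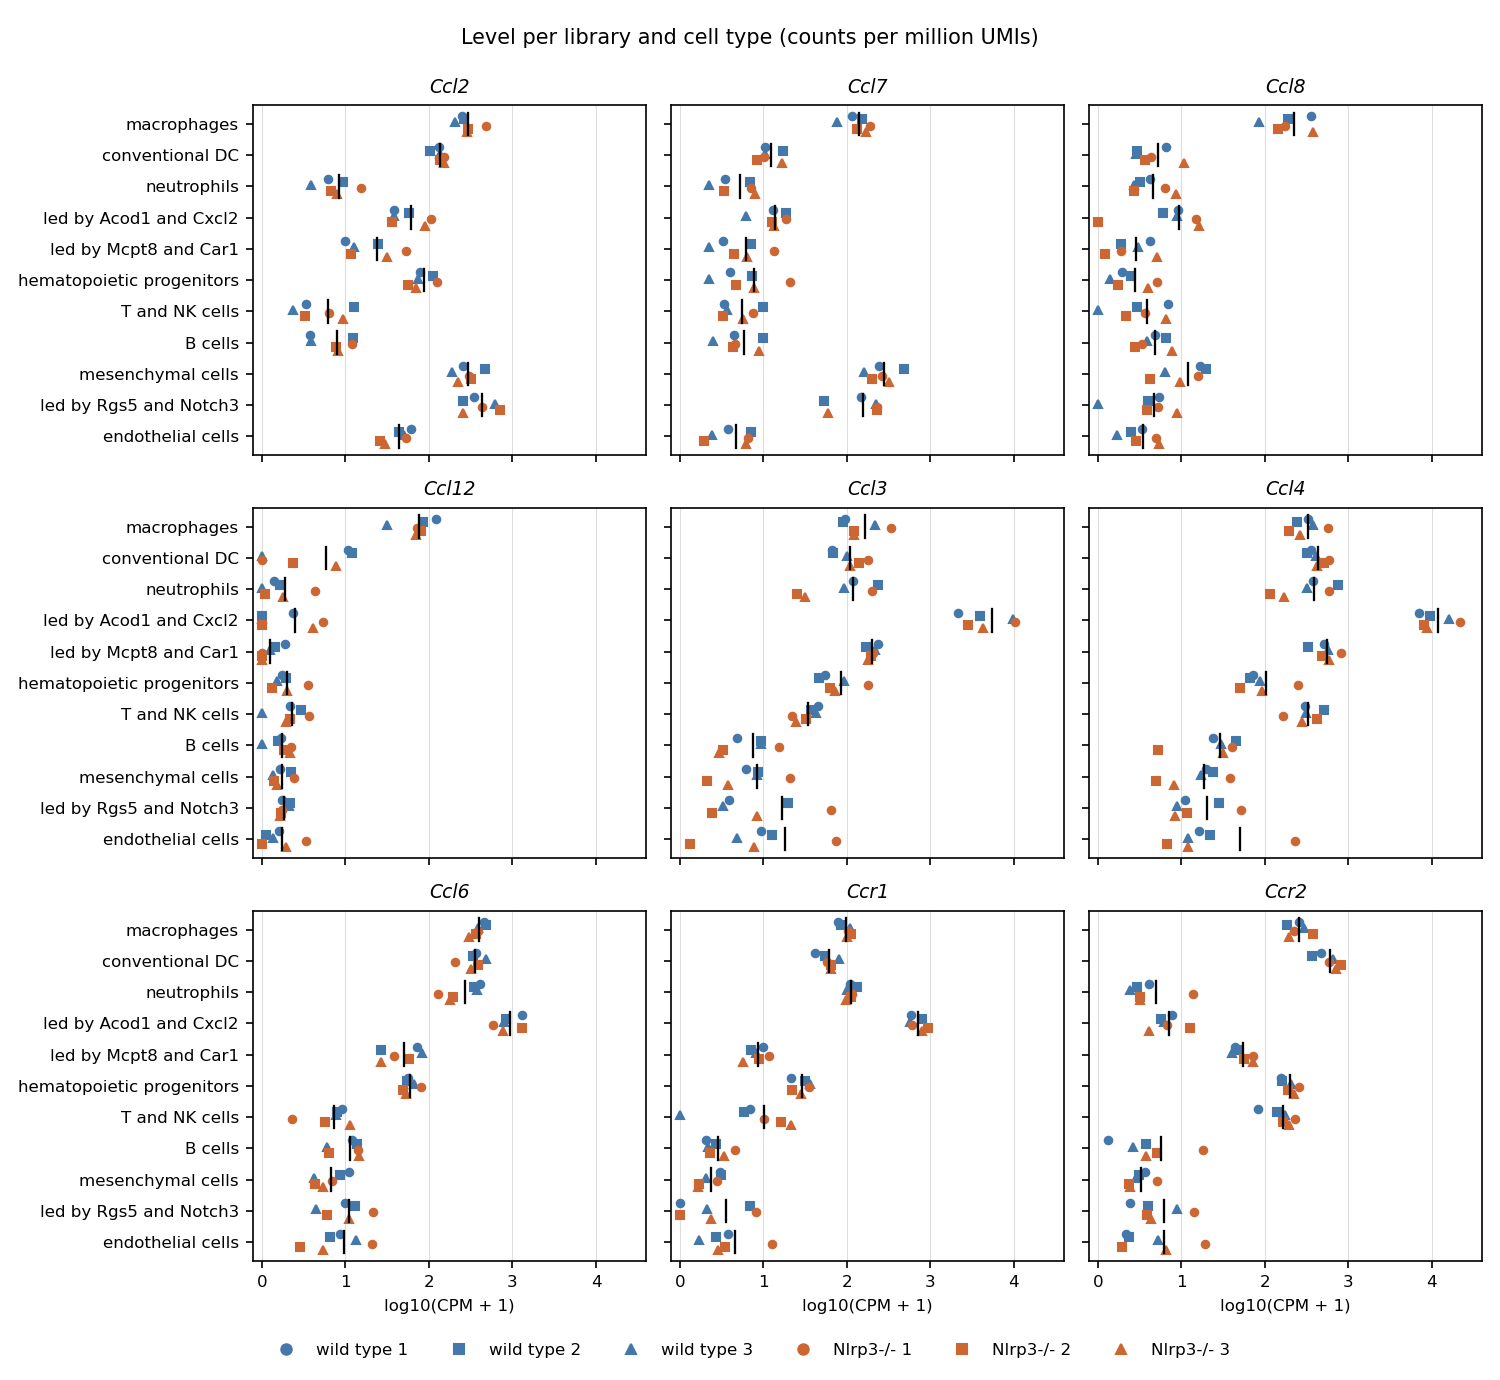
Level of each gene in 11 cell types, as log10(CPM + 1) on the horizontal axis, with 1 point per library (blue wild type, orange Nlrp3-/-) and the mean of the 6 libraries as a black bar. Ccl8 and Ccl12 stand out in macrophages, Ccl2 and Ccl7 in macrophages, mesenchymal cells and the cluster led by Rgs5 and Notch3, and Ccl3, Ccl4, Ccl6 and Ccr1 in the cluster led by Acod1 and Cxcl2.

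Ccl2, the main monocyte chemoattractant acting on Ccr2, was shared between stromal cells and macrophages. In macrophages it stood at 251, 265 and 204 CPM in the wild-type libraries and 476, 295 and 285 CPM in the Nlrp3-/- libraries. In mesenchymal cells, the fibroblasts, tenocytes and cartilage cells of the enthesis, it stood at 254, 469 and 188 CPM in the wild-type libraries and 302, 318 and 219.8 CPM in the Nlrp3-/- libraries. The 2 ranges overlapped, and macrophages were higher in 3 of 6 libraries. The cluster led by Rgs5 and Notch3, genes of pericytes and vascular smooth muscle, had the highest mean (436 ± 190.0 CPM) but was above macrophages in 3 of 6 libraries. All 3 types lay above conventional dendritic cells (133 ± 17.1 CPM), which mesenchymal cells exceeded in 6 of 6 libraries without overlap. Mesenchymal cells held 51.7% ± 11.5 of the Ccl2 UMIs and macrophages held 35.4% ± 10.4 (mean ± SD of 6 libraries). Shares of UMIs, here and below, are over the cells kept in the comparisons. In Nlrp3-/- 1, where a large mesenchymal cluster was set aside, they were 36.6 and 51.1%.

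Ccl7, a second Ccr2 ligand, was highest in mesenchymal cells. It stood there at 244, 483 and 158 CPM in the wild-type libraries and 261, 198 and 321 CPM in the Nlrp3-/- libraries, and in macrophages at 115, 153 and 75.9 CPM in the wild-type libraries and 186, 131 and 167 CPM in the Nlrp3-/- libraries. Mesenchymal cells were the higher of the 2 in 6 of 6 libraries, although the ranges overlapped. The cluster led by Rgs5 and Notch3 lay between them (156 ± 83.7 CPM) and overlapped with both. The next type below macrophages was the cluster led by Acod1 and Cxcl2 at 12.7 ± 4.55 CPM, with no overlap. Mesenchymal cells held 71.3% ± 8.59 of the Ccl7 UMIs. Within mesenchymal cells, inflammatory fibroblast-like cells had the highest Ccl7 (525 ± 191 CPM, range 294 to 862 CPM) and the cluster led by Prg4, which encodes the joint lubricant lubricin, had the highest Ccl2 (835 ± 308 CPM, range 536 to 1396 CPM). Progenitor fibroblast-like cells had the highest mesenchymal Ccl8 (80.0 ± 27.5 CPM, with no overlap with the next subset). Tenocyte-like cells, the tendon cells proper, stood at 19.3 to 70.4 CPM for Ccl2, below the inflammatory fibroblast-like cells and the cluster led by Prg4 in every library.

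Ccl8 and Ccl12 were macrophage genes in this tissue. Mouse Ccl8 acts mainly on Ccr8, a receptor of activated T cells, and Ccl12 is a further Ccr2 ligand. In macrophages Ccl8 stood at 352, 191 and 84.5 CPM in the wild-type libraries and 174, 141 and 377 CPM in the Nlrp3-/- libraries, and every library lay above the highest mesenchymal value, the next type in order (11.1 ± 6.25 CPM). Ccl12 stood in macrophages at 120.3, 84.2 and 30.1 CPM in the wild-type libraries and 70.4, 79.6 and 68.5 CPM in the Nlrp3-/- libraries, and the next type, conventional dendritic cells, was at 4.82 ± 5.01 CPM with no overlap. The libraries wild type 3 (lowest for both genes) and wild type 1 (highest for Ccl12) set the ends of the wild-type range. Macrophages held 90.1% ± 4.17 of the Ccl8 UMIs and 96.1% ± 1.40 of the Ccl12 UMIs.

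The genes of the ligands lie in 2 groups on chromosome 11, and those of the receptors lie on chromosome 9 (GRCm38, GENCODE annotation, all protein coding). Ccl2, Ccl7, Ccl12 and Ccl8 lie in this order on the plus strand within chr11:82035571-82116799, a span of 81.2 kb, with Ccl11 between Ccl7 and Ccl12. Ccl6, Ccl3 and Ccl4 lie within chr11:83587882-83664683, a span of 76.8 kb. Nlrp3 is on the same chromosome at 59541568 to 59566956, 22.5 to 24.1 Mb from these genes. Ccr1 and Ccr2 lie within chr9:123962124-124113557, a span of 151 kb. The RefSeq promoter table (GRCm38.p6) held 6 of the 9 members and not Ccl2, Ccl4 or Ccl7. The 250 bases before the start of Ccl8 (chr11:82114935-82115184, plus strand) and of Ccl12 (chr11:82101595-82101844, plus strand) are shown because these neighbouring genes had the same leading cell type, and those of Ccr1 (chr9:123968693-123968942, minus strand) because it had another. Capitals mark every match, on either strand, to TATAAA, to GAGGAA (the core bound by the myeloid factor PU.1, also read as TTCCTC) or to the kappaB motif.
Ccl8: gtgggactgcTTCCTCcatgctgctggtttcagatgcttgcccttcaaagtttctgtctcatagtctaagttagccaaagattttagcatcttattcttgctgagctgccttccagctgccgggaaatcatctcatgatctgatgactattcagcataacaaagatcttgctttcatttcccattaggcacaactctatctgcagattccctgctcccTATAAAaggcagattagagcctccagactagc
Ccl12: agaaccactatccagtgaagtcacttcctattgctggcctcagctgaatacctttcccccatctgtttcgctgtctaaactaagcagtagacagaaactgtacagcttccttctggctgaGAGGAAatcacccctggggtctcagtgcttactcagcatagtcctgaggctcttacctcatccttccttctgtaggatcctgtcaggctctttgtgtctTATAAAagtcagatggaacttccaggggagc
Ccr1: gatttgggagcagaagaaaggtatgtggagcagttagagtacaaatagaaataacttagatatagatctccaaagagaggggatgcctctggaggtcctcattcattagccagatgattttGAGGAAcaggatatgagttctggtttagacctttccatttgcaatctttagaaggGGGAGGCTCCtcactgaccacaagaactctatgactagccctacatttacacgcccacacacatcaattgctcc
TATAAA was found 32 to 27 bases before the start of Ccl8 and 31 to 26 bases before that of Ccl12, and in none of the other 4 members in the table. Over all 32851 promoters of the same length, 12.4% held this motif. The motif GAGGAA was found in Ccl3, Ccl8, Ccl12 and Ccr1, against 23.25% of all promoters, and the kappaB motif in Ccr1 alone, against 7.25%. No match was found in the 6 for TGANTCA (6.75% of all promoters), TTGCNNAA (9.56%) or TTCNNNGAA (7.02%), which says only that these letters are not in these windows.

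Ccl3, which binds Ccr1, and its neighbour Ccl4 are released by activated myeloid cells and had their highest level in the same cells here. In the cluster led by Acod1 and Cxcl2, Ccl3 stood at 2157, 3913 and 9733 CPM in the wild-type libraries and 10258, 2817 and 4255 CPM in the Nlrp3-/- libraries, and Ccl4 at 6989, 9439 and 15841 CPM in the wild-type libraries and 21764, 8058 and 8765 CPM in the Nlrp3-/- libraries. Each of these values lay above every value of any other type. The libraries wild type 3 and Nlrp3-/- 1 were the highest for both genes. The next mean for both was that of the cluster led by Mcpt8 and Car1 (200.2 ± 25.8 and 547 ± 159 CPM), followed for Ccl3 by macrophages (163 ± 96.2 CPM) and neutrophils (116 ± 86.4 CPM), whose ranges overlapped. This place did not hold when the largest possible share of RNA from outside the cells, up to 100% in that cluster, was taken off: Ccl3 was then at 134 CPM, below macrophages at 157 CPM, and Ccl4 at 417 CPM, below conventional dendritic cells at 421 CPM. For Ccl4, conventional dendritic cells (432 ± 101 CPM), neutrophils (389 ± 248 CPM), T and NK cells (331 ± 123 CPM) and macrophages (330.4 ± 137 CPM) overlapped in their ranges. The share of their UMIs that the cluster held differed between libraries. For Ccl3 it was 37.5, 69.9 and 69.5% in the wild-type libraries and 63.1, 10.4 and 22.1% in the Nlrp3-/- libraries, and macrophages held 22.0, 12.3 and 15.5% and 24.3, 39.7 and 52.2%. For Ccl4 it was 38.8, 65.3 and 63.3% in the wild-type libraries and 64.8, 14.0 and 19.1% in the Nlrp3-/- libraries, against 24.5, 13 and 15.3% and 20.1, 29.9 and 47.5% in macrophages. Macrophages thus held more of both than the cluster did in Nlrp3-/- 2 and 3, and less in the other 4 libraries. The cluster made up 11.1, 17.7 and 10.6% of the cells kept in the comparisons in the wild-type libraries and 9.61, 1.39 and 2.48% in the Nlrp3-/- libraries. For Nlrp3-/- 1 this base leaves out the 9814 of its 20578 cells that were set aside. Ccl4 in endothelial cells stood at 232 CPM in Nlrp3-/- 1, against 5.68 to 20.9 CPM in the other 5 libraries. With the largest possible share of RNA from outside the cells taken off it was at 148 CPM, against 0 to 11.1 CPM. The cause was not tested.

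Ccl6, a rodent chemokine that binds Ccr1, was a gene of the myeloid cells at large. It stood at 1314, 841 and 802 CPM in the wild-type libraries and 585, 1309 and 759.9 CPM in the Nlrp3-/- libraries in the cluster led by Acod1 and Cxcl2, above all other types in 6 of 6 libraries. In macrophages it stood at 454, 484 and 389 CPM in the wild-type libraries and 381, 364 and 298 CPM in the Nlrp3-/- libraries. Conventional dendritic cells (351 ± 91.5 CPM) did not separate from macrophages, and all other types except neutrophils were at 59.2 CPM or less on average. In neutrophils Ccl6 stood at 408, 343 and 373 CPM in the wild-type libraries and 129, 193 and 177 CPM in the Nlrp3-/- libraries, and the 2 genotypes did not overlap, as described with the genotype comparison.

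Ccr1, the receptor of Ccl3 and Ccl6, was highest in the cluster in which these ligands were highest. It stood at 592, 783 and 562 CPM in the wild-type libraries and 608, 945 and 794 CPM in the Nlrp3-/- libraries in the cluster led by Acod1 and Cxcl2, well apart from neutrophils (109.9 ± 12.4 CPM) and macrophages (97.1 ± 14.0 CPM). The CPM of the latter 2 overlapped, each being the higher in 3 of 6 libraries, while the test with scaling factors called Ccr1 lower in macrophages (log2 difference -1.04). Conventional dendritic cells came next (59.7 ± 12.5 CPM, below macrophages in 6 of 6 libraries). Ccr2 was ordered differently. It stood at 473, 366 and 655 CPM in the wild-type libraries and 587, 820.4 and 709.6 CPM in the Nlrp3-/- libraries in conventional dendritic cells and at 256, 182 and 298 CPM in the wild-type libraries and 221, 379 and 196 CPM in the Nlrp3-/- libraries in macrophages. Dendritic cells were the higher in 6 of 6 libraries, with overlapping ranges. Macrophages here include monocyte-like cells, a subset described below that had more Ccr2 than dendritic cells in 6 of 6 libraries. Hematopoietic progenitors (197 ± 38.4 CPM) and T and NK cells (163 ± 49.5 CPM) followed, then the cluster led by Mcpt8 and Car1 (54.5 ± 14.3 CPM), and every other type was at 6.22 CPM or less on average. The RNA outside cells, which can reach every droplet, held Ccl8 at 79.4 to 262 CPM, and with the largest possible share of such RNA taken off, the neutrophil Ccl2 mean went from 7.28 to 1.76 CPM while macrophage Ccl8 kept 217 CPM.

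**Figure D2:**
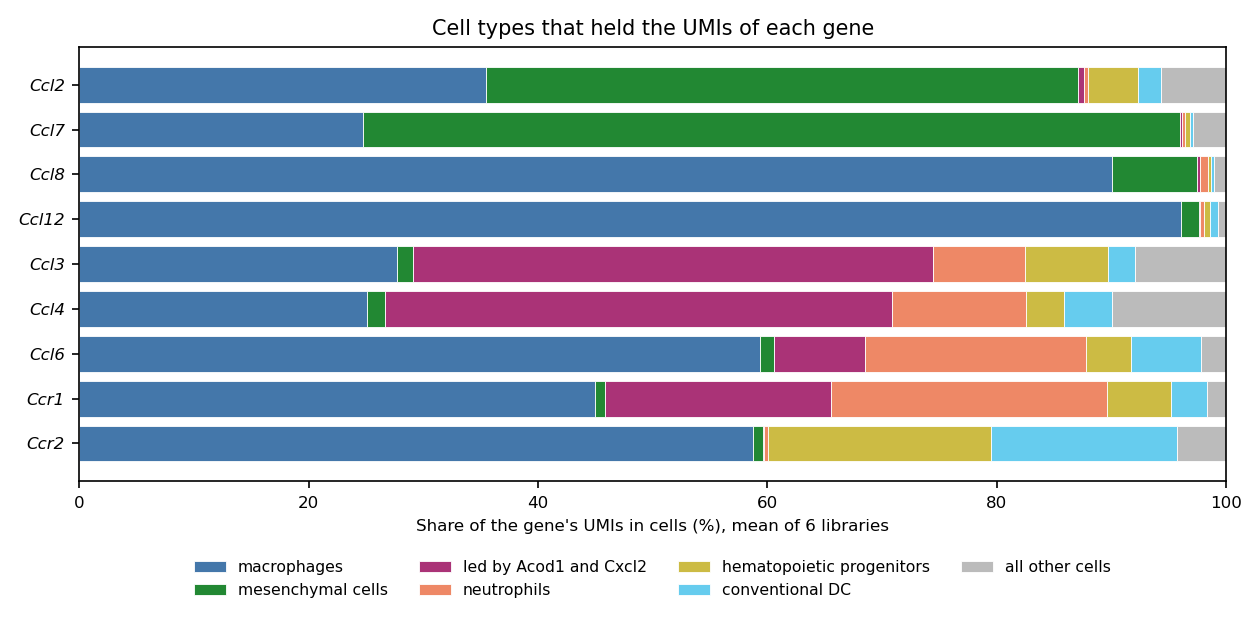
Share of the UMIs of each gene that each cell type held among the cells kept in the comparisons, in percent, as the mean of 6 libraries (stacked bars, 1 bar a gene). Macrophages hold 96.1% of Ccl12 and 90.1% of Ccl8, mesenchymal cells 71.3% of Ccl7 and 51.7% of Ccl2, and the cluster led by Acod1 and Cxcl2 45.4% of Ccl3 and 44.2% of Ccl4, means over libraries that ranged from 10.4 to 69.9% and from 14.0 to 65.3%.

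The 3 largest types were compared in pairs with the library as a block (edgeR quasi-likelihood test, 14246 genes). Macrophages were higher than neutrophils for 5 of the 9 members, where 40.6% of all genes tested were higher, and lower for 2, where 34.6% were. The 5 were Ccl12 (log2 difference 6.15, SE 0.38, edgeR adjusted p = 7.36e-10), Ccr2 (5.51), Ccl8 (5.10), Ccl2 (4.58) and Ccl7 (4.30), and each was higher in 6 of 6 libraries. Ccr1 (log2 difference -1.04, SE 0.17, edgeR adjusted p = 4.92e-05) and Ccl4 (log2 difference -0.88, SE 0.25, edgeR adjusted p = 0.00513) were the 2 called lower, although both were higher in CPM in 3 of 6 libraries. The TMM scaling factors averaged 0.657 in neutrophils against 1.21 in macrophages. With UMI totals and no scaling factors, Ccr1 (-0.16, edgeR adjusted p = 0.431) and Ccl4 (0.01, edgeR adjusted p = 0.982) were not called, Ccl6 was higher in macrophages (0.63, edgeR adjusted p = 0.00935, against -0.26, adjusted p = 0.269, with the factors), and all genes split into 9054 higher and 2302 lower in place of 5785 and 4927. The median over all genes was then 0.97 in place of 0.10. Ccl3 gave -0.10 with the factors (adjusted p = 0.838) and 0.81 without (edgeR adjusted p = 0.0615), and its call depended on the libraries and cells used. It was called lower in macrophages in wild-type libraries alone (-1.12, edgeR adjusted p = 0.0236), higher in Nlrp3-/- libraries alone (0.92, edgeR adjusted p = 0.0427) and lower with the cluster led by Acod1 and Cxcl2 joined to neutrophils (-2.69, edgeR adjusted p = 0.000151). With the factors, Ccl6 was called lower in macrophages in wild-type libraries alone (-0.71, edgeR adjusted p = 0.0104) and with that cluster joined (-0.55, edgeR adjusted p = 0.0112), and gave 0.23 in Nlrp3-/- libraries alone (edgeR adjusted p = 0.309). Without that cluster joined, however, its CPM was higher in macrophages than in neutrophils in 6 of 6 libraries. Ccl4 lost its call in Nlrp3-/- libraries alone (-0.34, edgeR adjusted p = 0.215).

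Macrophages were higher than mesenchymal cells for 7 members, where 37.5% of all genes were, and lower for 1, where 42.2% were. The largest differences were those of Ccr2 (log2 difference 6.97, SE 0.33, edgeR adjusted p = 1.85e-11), Ccl12 (6.74), Ccr1 (6.28) and Ccl6 (6.25). Ccl7 was the member called lower (log2 difference -0.91, SE 0.15, edgeR adjusted p = 4.62e-05), and Ccl2 did not pass (log2 difference 0.08, SE 0.17, edgeR adjusted p = 0.668). Mesenchymal cells were higher than neutrophils for Ccl7 (5.21) and Ccl2 (4.50), 2 members where 49.7% of all genes were higher, and lower for 5 (Ccr1, Ccl6, Ccl4, Ccl3 and Ccr2), where 37.8% were. Of these 5, Ccr2 (-1.46) was no longer called without scaling factors (-0.52, edgeR adjusted p = 0.205), when the split of all genes was 9483 higher and 3132 lower and the median of all genes 1.26, against 7078, 5390 and 0.32. Ccl8 was higher in mesenchymal cells than in neutrophils in 6 of 6 libraries but did not pass with the factors (0.70, edgeR adjusted p = 0.0539). It was called without them (1.66, edgeR adjusted p = 0.000222), in wild-type libraries alone (1.39, edgeR adjusted p = 0.00153) and without Nlrp3-/- 2 (0.78, edgeR adjusted p = 0.0438) or 3 (1.05, edgeR adjusted p = 0.00722), and stood at -0.03 in Nlrp3-/- libraries alone (edgeR adjusted p = 0.956). The members' median differences in the 3 comparisons, macrophages minus neutrophils, macrophages minus mesenchymal cells and mesenchymal cells minus neutrophils, were 4.30, 4.93 and -1.46, against 0.10, -0.06 and 0.32 over all genes tested.

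**Figure D3:**
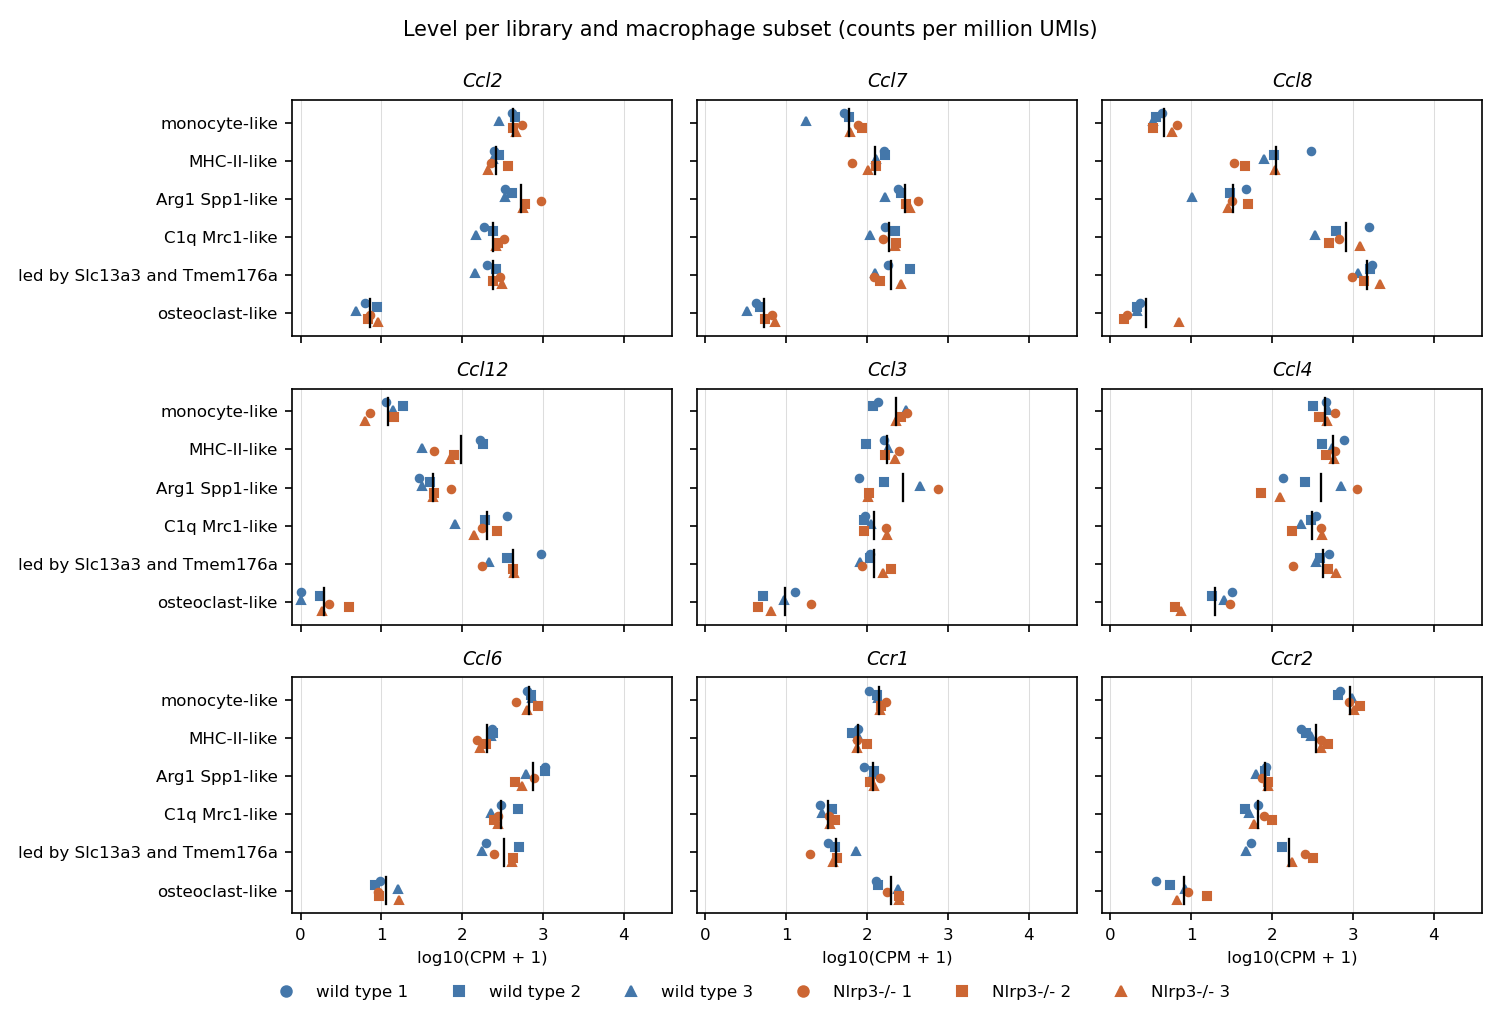
Level of each gene in 6 subsets of macrophages, as log10(CPM + 1) on the horizontal axis, with 1 point per library and the mean as a black bar. Ccr2 is highest in monocyte-like cells (912 CPM), where Ccl8 and Ccl12 are at 3.58 and 10.9 CPM, and Ccl8 and Ccl12 are highest in the cluster led by Slc13a3 and Tmem176a (1509 and 426 CPM), while all 3 genes have their lowest mean in osteoclast-like cells (7.14, 1.78 and 0.963 CPM).

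Within macrophages, the receptor Ccr2 and the ligands Ccl8 and Ccl12 were highest in different subsets, and all 3 were low in osteoclast-like cells. In monocyte-like cells, named from Ly6c2, Plac8 and other monocyte genes, Ccr2 stood at 687, 654 and 968 CPM in the wild-type libraries and 887, 1241 and 1039 CPM in the Nlrp3-/- libraries. In C1q Mrc1 macrophage-like cells, a profile of mature tissue macrophages, Ccr2 was at 45.0 to 99.3 CPM, and no library of 1 subset reached the other. Ccl8 was at 3.58 ± 1.42 CPM in the former, and in the latter at 1601, 626 and 338 CPM in the wild-type libraries and 681, 509.8 and 1220.0 CPM in the Nlrp3-/- libraries. Both Ccl8 and Ccl12 were highest in a cluster led by Slc13a3 and Tmem176a (1509 ± 430.3 and 426 ± 277 CPM), which matched the MHC-II and the C1q Mrc1 marker lists about equally and was not named. Monocyte-like cells held 66.1% of the Ccr2 UMIs of macrophages, and C1q Mrc1 macrophage-like cells 63.5% of the Ccl8 and 44.2% of the Ccl12 UMIs. The libraries also held hematopoietic progenitors, dividing neutrophil precursors and B cells led by Vpreb3 and Igll1. Whether monocyte-like cells or neutrophils came from bone marrow in the sample or had arrived at the injury was not tested.

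Monocyte-like cells were tested against the 4 other named subsets (edgeR, 10393 genes, library as a block). Against C1q Mrc1 macrophage-like cells 5 members were higher and 3 lower, where 33.0% and 32.7% of all genes were. Ccl8 (log2 difference -7.88, SE 0.35, edgeR adjusted p = 1.52e-18) and Ccl12 (-4.04) were lower by the most, Ccl7 was lower by less (-1.63), Ccr2 (log2 difference 3.88, SE 0.13, edgeR adjusted p = 1.05e-21) and Ccr1 (2.17) were higher, and so were Ccl6 (1.27), Ccl2 (0.95) and Ccl3 (0.91, and 0.98 with an edgeR adjusted p of 0.056 in Nlrp3-/- libraries alone). Ccl4 gave 0.61 (edgeR adjusted p = 0.106). Against MHC-II macrophage-like cells, which present antigen, 4 members were higher (Ccl6, Ccr2, Ccr1 and Ccl2, from 1.82 down to 0.76) and 3 lower (Ccl8, Ccl12 and Ccl7), where 26.5% and 26.1% of all genes were. The Ccl7 difference (-1.13) had this direction in 5 of 6 libraries, and in Nlrp3-/- libraries alone it was -0.33 and not called (edgeR adjusted p = 0.24).

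Arg1 Spp1 macrophage-like cells were made up of 3 clusters. They were led by Spp1 and Cd36, by Mmp12 and Fn1, and by Saa3, an acute-phase gene, and Cxcl3. The last held 1.72, 15.1 and 28.3% of the subset in the wild-type libraries and 44.4, 2.49 and 5.06% in the Nlrp3-/- libraries. It had higher means of Ccl3 (1038 ± 640 CPM), Ccl4 (1255 ± 1072 CPM), Ccl2 (1060 ± 500.1 CPM) and Ccl7 (506 ± 349 CPM) than the other 2. Against all Arg1 Spp1 macrophage-like cells 1 member was higher (Ccr2, 3.44) and 4 were lower, where 31.5% and 33.9% of all genes were. The lower members were Ccl8 (-3.38), Ccl7 (log2 difference -2.41, SE 0.20, edgeR adjusted p = 4.05e-12), Ccl12 (-2.06) and Ccl2 (-0.31, edgeR adjusted p = 0.0438). The Ccl2 difference lay near the threshold. It did not pass with RLE size factors (-0.28, edgeR adjusted p = 0.0673), without scaling factors (-0.27, edgeR adjusted p = 0.0708) and without wild type 3 or any 1 of the 3 Nlrp3-/- libraries (-0.31 to -0.16, edgeR adjusted p = 0.0774 to 0.213). Ccl4 (0.44, edgeR adjusted p = 0.257) was called without Nlrp3-/- 1 (0.89, edgeR adjusted p = 0.0196), and Ccl6 (-0.16, edgeR adjusted p = 0.352) without Nlrp3-/- 2 (-0.35, edgeR adjusted p = 0.0342). Without the cluster led by Saa3 and Cxcl3, Ccl2 was not called (-0.09, edgeR adjusted p = 0.456), while Ccl4 (1.77, edgeR adjusted p = 6.33e-11), Ccl3 (1.203, edgeR adjusted p = 2.95e-08, against -0.09 with it) and Ccr1 (0.45, edgeR adjusted p = 0.000234) were higher in monocyte-like cells. Arg1 Spp1 macrophage-like cells had the highest Ccl7 of the named subsets (290.0 ± 88.2 CPM) and, with monocyte-like cells, the highest Ccl6 (754 ± 262 and 673 ± 133 CPM, higher in 3 of 6 libraries each). Osteoclast-like cells, the bone-resorbing relatives of macrophages, carried little of the ligands (Ccl2 6.18 ± 1.56 and Ccl6 10.5 ± 3.81 CPM) but the highest Ccr1 of the named subsets (196 ± 57.7 CPM against 139 ± 21.0 CPM in monocyte-like cells). Against them 7 members were higher in monocyte-like cells and 1, Ccr1, was lower (log2 difference -0.42, SE 0.11, edgeR adjusted p = 8.28e-04), where 39.1% and 37.3% of all genes were. Ccl8 gave 0.57 (edgeR adjusted p = 0.504).

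Neutrophils also differed by maturity. In mature neutrophils Ccl6 stood at 1855, 842 and 2767 CPM in the wild-type libraries and 1014, 2901 and 2723 CPM in the Nlrp3-/- libraries, and in dividing precursors at 4.37 to 19.1 CPM, with no overlap. Ccl4 ran from 61.1 ± 60.6 CPM in dividing precursors to 2838 ± 1536 CPM in mature cells, and Ccr1 from 32.2 ± 6.01 CPM to 349 ± 92.5 CPM. The share of mature cells differed between the libraries, and its values stand beside the genotype comparison.

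**Figure D4:**
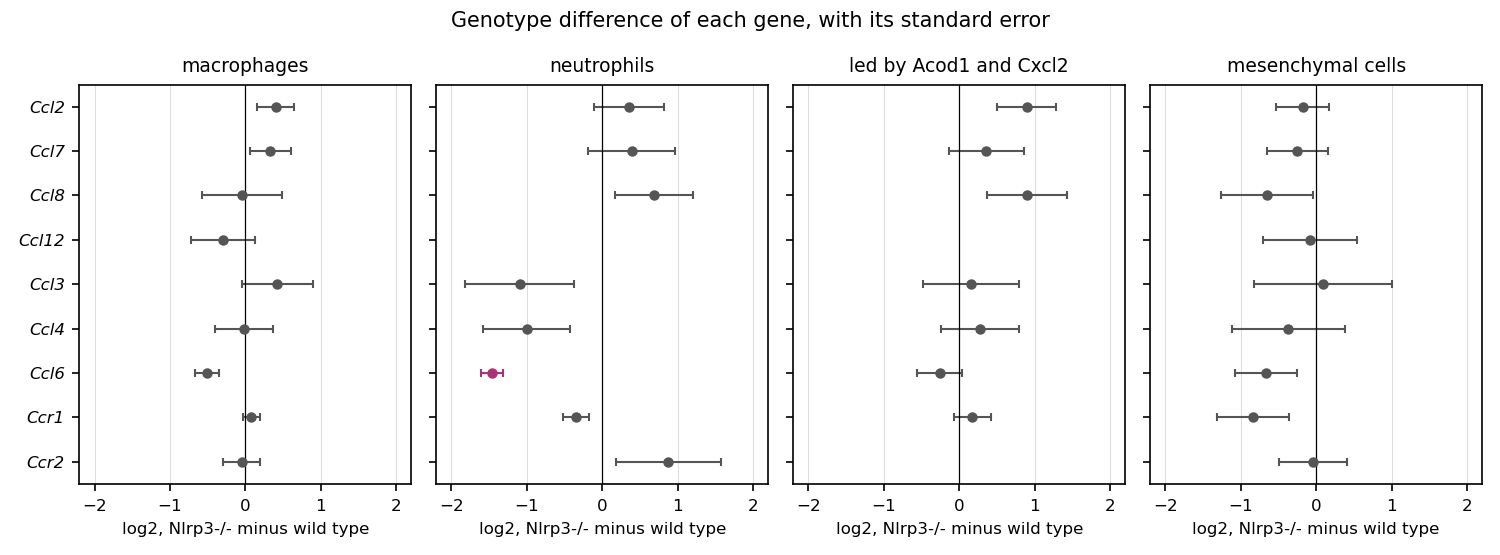
Difference of each gene between the genotypes (log2, Nlrp3-/- minus wild type, horizontal axis) in 4 cell types, with its standard error as the bar. The coloured point, Ccl6 in neutrophils at -1.46, is the member that passed the test, and genes with too few UMIs to be tested have no point.

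To see how loss of Nlrp3 alters the inflamed enthesis, the genotypes were compared in each type over the 3 wild-type and 3 Nlrp3-/- libraries. In macrophages no member passed the test, where 0.415% of 12777 genes did. The differences there were 0.40 for Ccl2, 0.43 for Ccl3, -0.02 for Ccl4, 0.33 for Ccl7, -0.04 for Ccl8, -0.29 for Ccl12, 0.08 for Ccr1 and -0.05 for Ccr2, all on the log2 scale. The make-up of macrophages differed between libraries, and monocyte-like cells, the subset highest in Ccr2, were 34.0, 20.4 and 33.1% of macrophages in the wild-type libraries and 14.2, 33.9 and 15.6% in the Nlrp3-/- libraries. With the same mix of subsets in every library, Ccr2 stood at 214 ± 36.8 CPM in wild-type and 303 ± 39.2 CPM in Nlrp3-/- libraries and Ccr1 at 88.2 ± 13.9 and 104 ± 1.47 CPM. Ccl2 stood at 234 ± 36.7 and 349 ± 73.4 CPM, and Ccl6 at 439 ± 76.9 and 343 ± 12.0 CPM. Every Nlrp3-/- library was then higher for Ccr2, Ccr1 and Ccl2 and lower for Ccl6 (exact permutation p = 0.1 for each, the smallest that 3 against 3 libraries allow), and the other 5 members overlapped. The share of all genes that separate with this mix is not given here, and the mix was chosen after seeing the data. These separations are therefore a description and do not establish a genotype difference. Ccl6 came closest in macrophages, at 442 ± 48.3 CPM in wild-type and 348 ± 44.2 CPM in Nlrp3-/- libraries (log2 difference -0.51, SE 0.16, edgeR adjusted p = 0.181). Its groups did not overlap, and it was called by DESeq2 (adjusted p = 0.0379) and by edgeR without wild type 3 (-0.63, adjusted p = 0.0222). Without that library Ccl12 was called too (-0.70, edgeR adjusted p = 0.0249), as were 2500 genes in place of 53. Ccl2 in macrophages (239.8 ± 31.8 CPM in wild-type and 352 ± 107 CPM in Nlrp3-/- libraries) did not overlap either, with an edgeR adjusted p of 0.378. The share of all genes whose genotype groups do not overlap is not given, here or in the other comparisons. Each lack of overlap between genotypes is therefore a description.

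Across the 11 types, 77 pairs of a member and a type had enough UMIs for the test. Of these, 1 passed (edgeR adjusted p under 0.05), where 0.622% of all 112811 gene and type pairs did. At an unadjusted p under 0.05 there were 9, or 11.7% of the members' pairs against 15.3% of all pairs, and DESeq2 called 2 of the 66 it tested, or 3.03% against 3.29%. These counts moved with the settings. Without wild type 3, 6 of 81 of the members' pairs were called (7.41% against 10.1% of all pairs). Without Nlrp3-/- 1 there were 2 of 82 (2.44% against 0.365%). Without the filter on low counts there were 13 of 99 (13.1% against 2.43%). By type, the share of all genes called was 0.101% in mesenchymal cells, 0.127% in the cluster led by Acod1 and Cxcl2, 0.232% in the cluster led by Rgs5 and Notch3, 0.277% in endothelial cells, 0.299% in B cells, 0.320% in the cluster led by Mcpt8 and Car1, 0.447% in hematopoietic progenitors, 0.780% in conventional dendritic cells and 0.926% in T and NK cells, and no member was called in any of these. Without wild type 3, Ccl3 (0.83, edgeR adjusted p = 0.0164) and Ccr2 (0.52, edgeR adjusted p = 0.0437) were called in conventional dendritic cells. In mesenchymal cells Ccl2 was at 304 ± 147 CPM in wild-type and 280.0 ± 52.7 CPM in Nlrp3-/- libraries (log2 difference -0.18, SE 0.35, edgeR adjusted p = 0.814) and Ccl7 at 295 ± 169 CPM in wild-type and 259.9 ± 61.5 CPM in Nlrp3-/- libraries, so the groups overlapped. Their mesenchymal cells lay in different clusters. Inflammatory fibroblast-like cells, the subset highest in Ccl7, were 43.8, 49.3 and 16.9% of the mesenchymal cells placed in subsets in the wild-type and 12.3, 3.90 and 18.9% in the Nlrp3-/- libraries. A cluster led by Mest and Nrk held 0.687, 0.376 and 2.55% against 32.1, 1.84 and 9.72%. These shares and all values by mesenchymal subset leave out 271 of 2047 mesenchymal cells of Nlrp3-/- 1, 119 of 1915 of Nlrp3-/- 2 and 2 to 7 of each other library, which were set aside. An earlier step had already set aside a cluster of 5595 cells, 98.4% from Nlrp3-/- 1, with mesenchymal genes as its closest list. All mesenchymal values of Nlrp3-/- 1 therefore rest on at most the 2047 cells kept. With the same mix of subsets in every library, the means ran the other way and the groups still overlapped, with Ccl2 at 243 ± 63.0 and 299 ± 58.6 CPM and Ccl7 at 234 ± 60.3 and 279 ± 62.0 CPM in wild-type and Nlrp3-/- libraries (exact permutation p = 0.5 and 0.4). That mix also weights subsets with few cells in a library, such as the cluster led by Mmp3 and Cxcl14 with 2 cells in wild type 1 and 5 in wild type 2. In conventional dendritic cells Ccl3 was at 77.8 ± 19.3 CPM in wild-type and 141 ± 34.7 CPM in Nlrp3-/- libraries without overlap (log2 difference 0.69, SE 0.20, edgeR adjusted p = 0.121), and Ccr2 at 498 ± 146 CPM in wild-type and 706 ± 117 CPM in Nlrp3-/- libraries (log2 difference 0.34, SE 0.18, edgeR adjusted p = 0.359). Over all cells of a library no member passed, where 0.150% of genes did, and Ccl6 stood at 195 ± 34.5 CPM in wild-type and 122 ± 26.5 CPM in Nlrp3-/- libraries with an edgeR adjusted p of 0.355 (DESeq2 adjusted p = 0.0378).

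The pair that passed was Ccl6 in neutrophils, the cell type with the highest share of called genes (3.12% of 10329). Ccl6 stood at 408, 343 and 373 CPM in the wild-type libraries and 129, 193 and 177 CPM in the Nlrp3-/- libraries. Every wild-type library lay above every Nlrp3-/- library, and the log2 difference was -1.46 (SE 0.15, edgeR adjusted p = 0.000747). Markers of maturity moved with it, and mature cells were 32.4, 39.7 and 21.0% of neutrophils in the wild-type libraries and 12.0, 11.7 and 11.8% in the Nlrp3-/- libraries. These shares leave out the cluster led by Acod1 and Cxcl2, whose leading genes included the mature-neutrophil markers Il1b and Ccrl2. It held 1370, 2653 and 986 cells in the wild-type and 1034, 152 and 302 in the Nlrp3-/- libraries. Those named neutrophils were 3452, 1924 and 1983 and 1031, 2517 and 2148. Shares with that cluster counted are not given here. The summed level of the 8 mature-neutrophil markers was 6003 to 8608 CPM in the wild-type and 4444 to 5217 CPM in the Nlrp3-/- libraries, 3 of the 8 were called lower and none was at 0. Within mature neutrophils, where 0.612% of genes were called, Ccl6 gave a log2 difference of 0.18 (edgeR adjusted p = 0.867) and the groups overlapped. Mature neutrophils were 2 clusters. Ccl6 was at 289 ± 194 CPM in the one led by Cxcl2 and Cxcl3 and at 2616 ± 599 CPM in the one led by Il1b and Wfdc17. The former held 11.7, 38.8 and 5.04% of them in the wild-type and 37.1, 2.37 and 2.37% in the Nlrp3-/- libraries. When every library was given the same mix of the 7 neutrophil subsets, Ccl6 stood at 313 ± 111 CPM in wild-type and 329 ± 146 CPM in Nlrp3-/- libraries (exact permutation p = 0.9, 2-sided). Some of these subsets had few cells in a library, such as the cluster led by Retnlg and Hmox1 with 12 cells in wild type 3. Mature cells entered this mix as 1 subset, so the shares of their 2 clusters were not made equal. The call in all neutrophils was lost with finer clusters (-1.34, edgeR adjusted p = 0.065) and with the cells of the cluster led by Acod1 and Cxcl2 joined to neutrophils (-1.32, edgeR adjusted p = 0.0585). The cause of the Ccl6 difference was not tested.

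**Figure D5:**
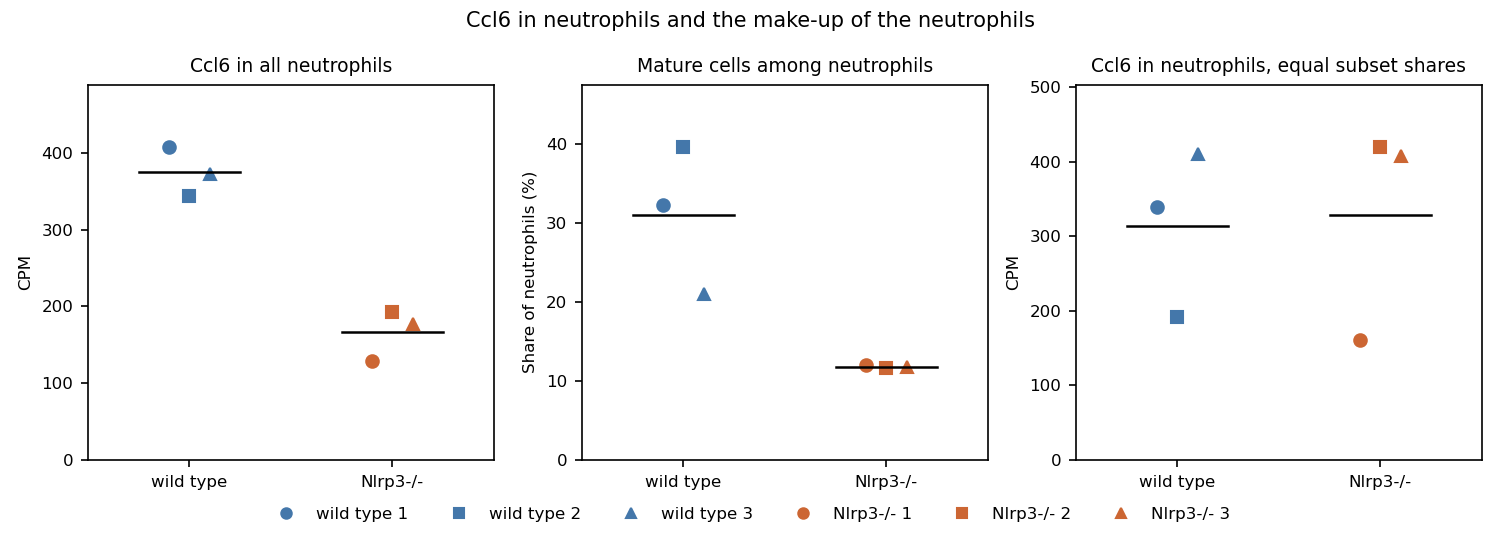
The left panel plots Ccl6 in all neutrophils (CPM), the middle panel mature cells as a percent of neutrophils and the right panel Ccl6 in neutrophils with the same subset shares in every library (CPM), with 1 point per library, the genotype mean as a line and axes that start at 0. The genotypes are apart in the left panel (343 to 408 against 129 to 193 CPM) and the middle panel (21.0 to 39.7 against 11.7 to 12.0%) and overlap in the right panel (means 313 and 329 CPM). All panels leave out the cluster led by Acod1 and Cxcl2, and the right panel does not even out the clusters within mature cells.

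Ccr1 in neutrophils gave no such difference. In all neutrophils it was at 112 ± 17.0 CPM in wild-type and 108 ± 9.03 CPM in Nlrp3-/- libraries (log2 difference -0.35, SE 0.17, edgeR adjusted p = 0.274, and -0.50 with an adjusted p of 0.0499 without wild type 3). With equal subset shares it was at 94.1 ± 2.45 and 135 ± 5.79 CPM, where every Nlrp3-/- library was the higher (exact permutation p = 0.1, the smallest that 3 against 3 libraries allow). The share of all genes that separate in this way is not given here, so this too is a description. Within the 22 subsets of macrophages, neutrophils and mesenchymal cells, 133 pairs of a member and a subset were tested and 2 passed, where 0.607% of all 167847 pairs did. At an unadjusted p under 0.05 there were 35, or 26.3% of the members' pairs against 14.0% of all pairs. The members' pairs share libraries and cells, so these shares are a description. Both passing pairs were in neutrophil subsets without a name. Ccl3 in the cluster led by Zmpste24 and Orm1 stood at 69.6, 69.9 and 39.3 CPM in the wild-type libraries and 15.9, 15.2 and 18.7 CPM in the Nlrp3-/- libraries, with no overlap (log2 difference -2.10, SE 0.27, edgeR adjusted p = 1.36e-04), in a cluster where 1.82% of genes were called. Ccl4 in the subset led by Thbs1 and Mmp8 stood at 269.9, 198 and 183 CPM in the wild-type libraries and 153, 123 and 117 CPM in the Nlrp3-/- libraries, again with no overlap (log2 difference -0.90, SE 0.21, edgeR adjusted p = 0.0367, with 2.03% of genes called). Leaving out wild type 1 or 2 or Nlrp3-/- 2 or 3 raised its edgeR adjusted p to 0.098 to 0.174, with differences of -0.75 to -0.87. This subset joined 2 clusters with the same leading genes, of 1933 and 1348 cells. Mature neutrophil genes were the closest list of the former and immature neutrophil genes that of the latter. Wild type 3 gave the most cells to the former and Nlrp3-/- 3 to the latter. Whether the Ccl4 difference holds within each of them was not tested. In all neutrophils Ccl3 (148 ± 76.0 CPM in wild-type and 85.1 ± 99.7 CPM in Nlrp3-/- libraries, log2 difference -1.10) and Ccl4 (487 ± 239 CPM in wild-type and 292 ± 261 CPM in Nlrp3-/- libraries) did not pass, and without Nlrp3-/- 1, the library with the highest Ccl3 and Ccl4 in macrophages and in the cluster led by Acod1 and Cxcl2, Ccl3 was called (-2.77, edgeR adjusted p = 0.0212).

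In the Arg1 Spp1 macrophage-like cells Ccl2 was at 365 ± 43.5 CPM in wild-type and 707 ± 214 CPM in Nlrp3-/- libraries without overlap (log2 difference 0.87, SE 0.24, edgeR adjusted p = 0.316), and Ccl7 at 223 ± 51.9 CPM in wild-type and 357 ± 58.8 CPM in Nlrp3-/- libraries (log2 difference 0.57, SE 0.22, edgeR adjusted p = 0.397), so neither passed with edgeR. DESeq2 (adjusted p = 0.0175) and edgeR without the filter (adjusted p = 0.0128) called Ccl2. Without the cluster led by Saa3 and Cxcl3 the differences were 0.58 for Ccl2 (edgeR adjusted p = 0.0838) and 0.35 for Ccl7 (edgeR adjusted p = 0.286). In monocyte-like cells Ccr2 was at 769.6 ± 172 CPM in wild-type and 1055 ± 177 CPM in Nlrp3-/- libraries (log2 difference 0.33, SE 0.16, edgeR adjusted p = 0.395). These cells also lay in different clusters. One led by Plac8 and Chil3 held 74.5, 72.0 and 13.9% of them in the wild-type and 10.4, 21.5 and 12.3% in the Nlrp3-/- libraries. Ccr2 was at 1050.5 ± 325 CPM in that cluster. Whether the genotype difference itself differed between types was tested with the interaction term of macrophages, neutrophils and mesenchymal cells. No member passed in any of the 3 comparisons, where 0.140% of genes did between macrophages and neutrophils, 0.0281% between macrophages and mesenchymal cells and 1.82% between mesenchymal cells and neutrophils. Between macrophages and neutrophils, the difference was 2.06 for Ccl3 (SE 0.60, edgeR adjusted p = 0.269), 1.15 for Ccl4 (SE 0.42, edgeR adjusted p = 0.404) and 0.97 for Ccl6 (SE 0.32, edgeR adjusted p = 0.337) on the log2 scale. The Ccl6 difference of neutrophils is therefore not shown to be particular to them.

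The rest of the family was counted from 3 lists: 13 other CC chemokines, 13 other CC and atypical receptors, and 8 other monocyte attractants, growth factors and receptors. Between genotypes, the 1 call among them in macrophages, neutrophils, mesenchymal cells or all cells was Ccrl2, an atypical receptor that holds chemerin at the cell surface and was itself among the 8 mature-neutrophil markers. It was 1 of 2 such receptors tested in neutrophils, where 3.12% of all genes were called, against 0.415% in macrophages, 0.101% in mesenchymal cells and 0.150% over all cells. In neutrophils it stood at 41.3, 138 and 49.6 CPM in the wild-type and 31.8, 14.5 and 22.9 CPM in the Nlrp3-/- libraries (log2 difference -2.06, SE 0.48, edgeR adjusted p = 0.0488). Between macrophages and neutrophils, 3 of the 9 chemokines tested were higher in macrophages and 2 lower, 3 of 7 receptors were higher and 0 lower, and 3 of 7 attractants and growth factors were higher and 2 lower, where 40.6% of all genes were higher and 34.6% lower. Between macrophages and mesenchymal cells the counts, higher then lower in macrophages, were 2 and 4 for the chemokines, 5 and 2 for the receptors and 3 and 4 for the attractants, where 37.5% and 42.2% of all genes were, and between mesenchymal cells and neutrophils, higher then lower in mesenchymal cells, 5 and 1, 2 and 4, and 4 and 2, where 49.7% and 37.8% were. Among near relatives, Ccl9, the neighbour of Ccl6, stood at 567 ± 90.6 CPM in macrophages and 258 ± 50.4 CPM in conventional dendritic cells, Ccl5 at 5490.3 ± 1299 CPM in T and NK cells, and Ccl11, which attracts eosinophils, at 147 ± 50.1 CPM in the cluster led by Rgs5 and Notch3. Csf1r, the receptor for the macrophage growth factor Csf1, stood at 277 ± 26.9 CPM in macrophages. It was itself among the markers used to name macrophages. Its level there and its calls against the other types, counted above among the attractants and growth factors, are thus no independent result.

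Genes with the most similar pattern were ranked by Pearson r of log2(CPM + 1) over 66 points, 11 types in 6 libraries, among 9400 genes. The points of a library share its depth, so r is a description. For Ccl8 the 3 most alike were C1qa (r = 0.842), Gpnmb and C1qc, and for Ccl12 C1qa (0.898), C1qb and C1qc, the subunits of complement C1q. For Ccl2 they were Cd302 (0.949), Nupr1 and Vcan, and for Ccl7 Ctsk (0.895), Itgb5 and Lrp1. For Ccl3 they were Cxcl2 (0.932), Ccrl2 and Tnf, and for Ccl4 Ccrl2 (0.929), Plek and Tnf. For Ccl6 they were Pira2 (0.957), Pirb and Fgr, for Ccr1 Cd300lf (0.956), Lilrb4a and Lilr4b, and those of Ccr2 included Ms4a6b (0.945) and Ms4a4c. Among the members themselves the highest r were those of the neighbours Ccl3 and Ccl4 (0.953), of Ccl6 and Ccr1 (0.919), of Ccl3 and Ccr1 (0.854) and of Ccl8 and Ccl12 (0.846), and Ccl2 and Ccl7 gave 0.808. Ccl2 and its receptor Ccr2 gave 0.125.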

How the data were processed

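The deposited matrices hold raw UMI counts per gene and barcode, made by the authors with Cell Ranger (2.1.1 in the submitters' processing notes, version 4 per the file headers) on mm10, unfiltered. Barcodes with at least 500 UMIs, 200 genes and at most 10% mitochondrial UMIs that differed from ambient RNA (FDR 0.01) were kept. The 12879 barcodes with the highest doublet scores (0.8% per 1000 cells) were removed, since the automatic Scrublet limit marked 485. Cells were clustered with scanpy 1.11.5 (2000 variable genes, 30 components, 15 neighbours, Leiden resolution 1.0) without the members, and clusters were named from marker lists. Sums of counts per library and type, for types where no library had under 20 cells, entered edgeR 4.0.16 in R 4.3.3 (quasi-likelihood, TMM, filterByExpr, Benjamini-Hochberg, 0.05), with DESeq2 1.42.0 as an alternative. Scripts were tested on simulated data. Promoters are from RefSeq (GRCm38.p6), positions from GENCODE, where 32235 of 32285 gene IDs matched. All 9 members were named whatever their result, relatives when they passed the threshold or were nearest relatives, and the 3 genes most alike to each member came from genes of at least 20 CPM in a type. Members and lists were chosen with earlier results of these data known. Equal subset shares, no scaling factors, the joined shallow cluster, levels without Nlrp3-/- 1 and Arg1 Spp1 macrophage-like cells without 1 cluster were alternatives chosen after seeing the data. Intervals and limits cover counting error only. A related gene that the naming rule covers is not reported here.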

Additional observations from a re-analysis of the deposited data

How the results depend on the processing

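Counts of genes called between genotypes depended on the method. In macrophages 53 genes were called by edgeR, 306 without a filter on low counts, 526 by DESeq2 and 24 to 2500 when 1 library was left out, the highest without wild type 3. In neutrophils the 322 genes became 1231 without the filter, 560 by DESeq2, 198 with doublets kept, 35 with finer clusters, 37 with the shallow cluster joined and 66 to 1591 without 1 library. In mesenchymal cells the 15 became 246 by DESeq2 and 8 to 563 without 1 library, and over all cells the 26 became 284 by DESeq2 and 16 to 28. Members called were 0 in macrophages (1 by DESeq2, 0 to 2 without 1 library), 1 in neutrophils (3 without the filter, 0 with finer clusters, 0 with the shallow cluster joined, 1 to 2 without 1 library), 0 over all cells (1 by DESeq2) and 2 in subsets (36 without the filter, 9 by DESeq2, 1 to 17 without 1 library). Of the pairs of a member and a subset tested these were 1.5%, 18.2%, 7.56% and 0.694 to 12.6%, where 0.607%, 2.16%, 2.1% and 0.246 to 8.15% of all gene and subset pairs were called, the upper end of both ranges being without wild type 3. The cause was not tested.

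Replicate numbers did not pair the libraries: deviations of same-numbered libraries correlated at -0.573 to 0.0245 over all cells and at -0.1126 or less in macrophages. With the replicate block 25 genes were called in macrophages, 4 in mesenchymal cells and 11 over all cells, members called in subsets went from 2 to 7 (5.26% of their pairs, against 0.477% of all pairs), and the signs of Ccl8 in macrophages (0.001982) and Ccl3 in the cluster led by Acod1 and Cxcl2 (-0.00405) turned.

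Of 390 repeats of a member's genotype difference 346 kept direction and side of the threshold and 25 reversed, none of these passing the test. Without 1 library, log2 differences in macrophages ranged from -0.3001 to 0.8888 for Ccl3, -0.6602 to 0.2856 for Ccl4, -0.5884 to 0.6014 for Ccl8, -0.6966 to 0.1913 for Ccl12 and -0.3498 to 0.1245 for Ccr2. They ranged in mesenchymal cells from -0.451 to 0.2785 for Ccl2 and -0.5736 to 0.3038 for Ccl7, in the cluster led by Acod1 and Cxcl2 from -0.8255 to 0.9824 for Ccl3 and -0.5962 to 0.6964 for Ccl4, and in mature neutrophils from -0.1475 to 0.516 for Ccl6. Ccl3 in neutrophils turned to 0.01017 with finer clusters and 0.003293 with the shallow cluster joined.

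Of 720 repeats between types and subsets 675 kept direction and side and 19 reversed. Without the cluster led by Saa3 and Cxcl3, monocyte-like minus Arg1 Spp1 macrophage-like cells gave 1.203 for Ccl3, which passed, and against C1q Mrc1 and MHC-II macrophage-like cells Ccl4 (0.6416) and Ccl3 (0.3917) came to pass. Without scaling factors, macrophages minus neutrophils gave 0.807 for Ccl3, 0.006887 for Ccl4 and 0.6268 for Ccl6, and mesenchymal cells minus neutrophils gave 0.3545 for Ccl12. In Nlrp3-/- libraries alone, macrophages minus neutrophils gave 0.9169 for Ccl3 (which passed) and 0.2349 for Ccl6 (which did not), where wild-type libraries alone gave -1.122 and -0.7136 (both passed), mesenchymal cells minus neutrophils -0.02636 for Ccl8, and monocyte-like minus Arg1 Spp1 macrophage-like cells 0.0973 for Ccl3 and 0.07514 for Ccl6. The CPM of Ccl6 was nevertheless higher in macrophages than in neutrophils in 6 of 6 libraries. In wild-type libraries alone, Ccl2 gave -0.116 for macrophages minus mesenchymal cells and 0.03807 for monocyte-like minus Arg1 Spp1 macrophage-like cells, and Ccl12 0.1826 for mesenchymal cells minus neutrophils. Without 1 library, Ccl3 ranged from -0.4772 to 0.3514 for macrophages minus neutrophils and -0.3114 to 0.2681 for monocyte-like minus Arg1 Spp1 macrophage-like cells, and Ccl2 from -0.04304 to 0.2335 for macrophages minus mesenchymal cells. Of 28 repeats of a level 25 stayed within 1 SD. Neutrophil Ccl2 (7.28 CPM) went to 31.6 CPM with doublets kept and 1.76 CPM with the RNA from outside the cells taken off, and Ccl3 in the cluster led by Mcpt8 and Car1 from 200.2 to 134 CPM with the latter.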
